A study of Mus musculus with 5 samples.

Results

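The insulin-like growth factor (IGF) axis was examined in murine lung cancer-associated fibroblasts (CAFs), sequenced for RNA in 2 samples with the empty vector (CAF-vec) and 3 samples (CAF-200) made to overexpress miR-200a, miR-200b and miR-429, which one gene cluster encodes. The 10 members were chosen by gene symbol, and all 10 had a row among the 21835 genes of the table. They are the ligands *Igf1* and *Igf2*, the receptors *Igf1r* and *Igf2r*, and the binding-protein genes *Igfbp2* to *Igfbp7*. Both groups were cultured lung CAFs from mouse, labelled as wild-type control or miR-200 overexpression, transduced with lentivirus, and grown in medium with fetal bovine serum. No age, sex or strain is given for the source animals in the labels, and nothing says that the samples of a group came from separate cultures, so *p* values measure only the spread between these samples, which may be technical. Since each group is its own transduced and drug-selected population, miR-200 and any other difference between these populations cannot be told apart. Of the 10 members, 8 were expressed highly enough to be tested. *Igfbp2* rose and *Igf2r* fell in CAF-200, and the other 6 tested members did not pass the threshold.

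IGF-1 and IGF-2 are small secreted hormones related to insulin that act on neighboring cells. Both bind the IGF-1 receptor, a tyrosine kinase that signals growth and survival through the insulin receptor substrates, phosphatidylinositol 3-kinase (PI3K) and AKT. The IGF-2 receptor, which is also the cation-independent mannose 6-phosphate receptor, does not signal in this way and carries IGF-2 to lysosomes for breakdown. Secreted IGF-binding proteins hold the ligands outside the cell, and proteases that cut them set the ligands free. Fibroblasts are a known source of IGF ligands and of their binding proteins in the stroma of tumors.

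The overexpressed cluster holds 3 miRNAs that fall into 2 groups by their seed, the stretch at bases 2 to 8 that pairs with a target mRNA. Their mature sequences from RefSeq (GRCm38.p6, chromosome 4, minus strand) are shown because matches to them were searched in the members, with the seed in capitals.
miR-200a-3p: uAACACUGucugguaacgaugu
miR-200b-3p: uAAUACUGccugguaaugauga
miR-429-3p: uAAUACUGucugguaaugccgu
miR-200b and miR-429 share their seed, and that of miR-200a is the other.

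A perfect 7-base match to a seed, on the transcript strand only, was looked for in the longest annotated 3′-UTR of each member (GENCODE M21, GRCm38). The match is CAGTGTT for miR-200a and CAGTATT for miR-200b and miR-429, and no 7-base stretch can be both. Of the 10 members, 4 held a match to either seed and 6 held none. The *Igf2* match is the one followed by an A in the transcript, which extends it to 8 bases. The sites are shown with 8 bases on each side and the match in capitals, since a member could pair with the overexpressed miRNAs there. Shorter or imperfect matches, and matches outside annotated 3′-UTRs, were not looked for.
*Igf2r*, chr17:12683125-12683147, minus strand, miR-200b and miR-429: gtgagctgCAGTATTctattctt
*Igf2r*, chr17:12682714-12682736, minus strand, miR-200a: cggtgggcCAGTGTTggtgtagg
*Igf2r*, chr17:12682697-12682719, minus strand, miR-200a: tgtagggcCAGTGTTggtgtagg
*Igf2*, chr7:142651145-142651167, minus strand, miR-200a: cacccaccCAGTGTTaatatgcc
*Igfbp4*, chr11:99053031-99053053, plus strand, miR-200a: cacagcgcCAGTGTTtctgttct
*Igfbp6*, chr15:102149478-102149500, plus strand, miR-200b and miR-429: taataaaaCAGTATTgggggggt

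*Igf2r* had the most matches, with 3 in a 3′-UTR of 1304 bases. Its matches to miR-200a start 17 bases apart, so the displayed stretches overlap. The bases just before and just after these matches are the same. They thus lie in copies of a short repeat and are not independent of each other. Among the tested genes with a 3′-UTR within 20% of that length, 13 of 1764 (0.737%) had at least as many matches and 28.2% had a match to either seed. The 0.737% counts the repeated matches separately, and *Igf2r* was picked as the member with the most matches. It therefore does not measure how unusual *Igf2r* is. *Igfbp6* had its match in a 3′-UTR of only 209 bases, where 4.3% of the genes of like length had one. For *Igf2* and *Igfbp4*, with 3′-UTRs of 3050 and 2813 bases, 57.5% and 54.0% of the genes of like length had a match. The 3′-UTRs of *Igf1r* (7267 bases) and *Igf1* (6308 bases) are the longest of the members and held no match to either seed, whereas 82.1% and 77.9% of the genes of like length held at least 1. Over all 12055 tested genes with an annotated 3′-UTR, 20.8% held the miR-200a match and 15.7% the miR-200b and miR-429 match. A match is a description of the sequence, and binding was not measured here.

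**Figure D1:**
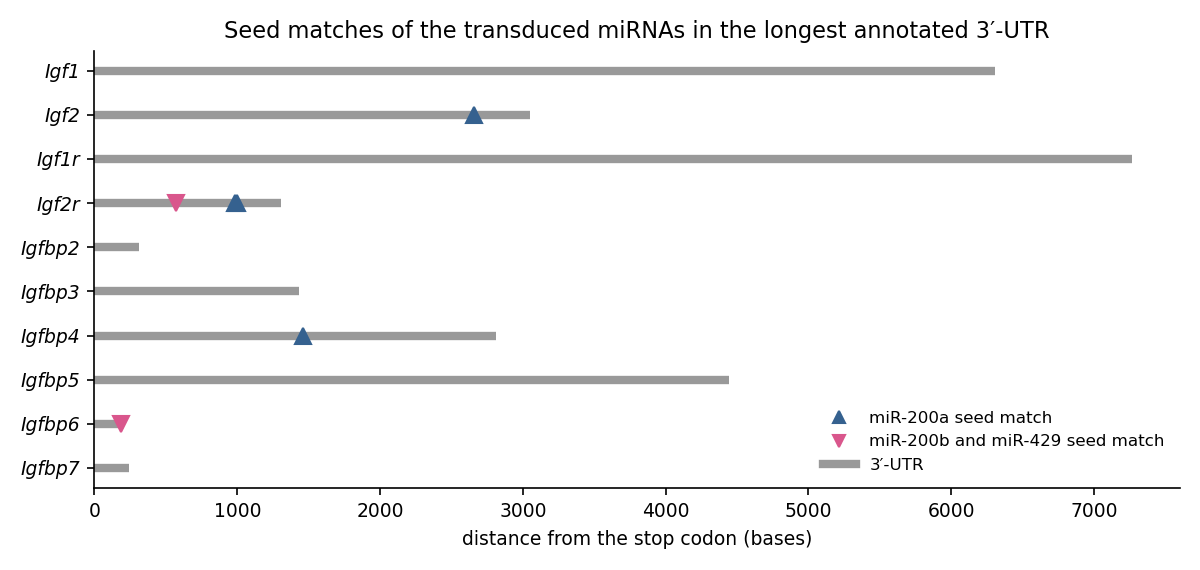
Positions of 7-base seed matches in the longest annotated 3′-UTR of each member, with the distance from the stop codon in bases on the x axis and each 3′-UTR drawn to scale as a gray bar. *Igf2r* carries 3 matches in 1304 bases, while the long 3′-UTRs of *Igf1* and *Igf1r* carry none.

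Values are CPM, reads scaled by the authors to a common library total, and the number of reads behind them was not recovered. A gene was tested on log2(CPM + 0.5) if 2 or more samples reached 0.5 CPM, which left 12175 genes, and limma *p* values were adjusted over all 12175 by the Benjamini-Hochberg method. A gene was called at an adjusted *p* under 0.01. At that threshold 5.57% of the tested genes were lower and 4.45% were higher in CAF-200, or 10.0% in all. The 2 CAF-vec libraries were less alike than any pair of CAF-200 libraries, with an SD over genes of 0.49 for their log2 difference against 0.19 to 0.20. *Zeb1*, a textbook miR-200 target, was 43.5 and 50.7 CPM in CAF-vec and 37.8, 37.5 and 34.1 CPM in CAF-200, lower in 3 of 3 samples without passing the threshold (log2 fold change -0.36, limma adjusted *p* = 0.0504), and *Zeb2* overlapped between the groups. Of 10 fibroblast markers 9 were tested. The markers summed to between 7457 and 14148 CPM in CAF-vec and between 6609 and 7302 CPM in CAF-200, while *Fap* stayed below 0.392 CPM in every sample. Of the fibroblast markers tested, *Thy1*, *Dcn* and *Lum* rose and none fell at this threshold, while 5 of the 9 had negative values. *Col1a1*, *Col1a2* and *Pdgfrb* were below both CAF-vec samples in every CAF-200 sample, with log2 fold changes of -0.91, -0.75 and -0.25 (limma adjusted *p* = 0.0982, 0.112 and 0.0776). Epithelial markers summed to at most 0.271 CPM, with *Krt18*, *Sftpc* and *Nkx2-1* at 0 throughout, and endothelial markers summed to at most 0.857 CPM, with *Tie1* and *Cldn5* at 0. Leukocyte markers summed to at least 7.23 CPM in CAF-vec and at most 5.93 CPM in CAF-200, with *Adgre1*, *Cd3e* and *Ms4a1* at 0, but both tested genes of the list, *Cd68* and *Csf1r*, overlapped between the groups and neither was called. Mural and smooth muscle markers summed to at least 4.46 CPM in CAF-vec and at most 4.40 CPM in CAF-200, with *Kcnj8* at 0, and here too both tested genes, *Cspg4* and *Des*, overlapped and were not called. Mesothelial markers summed to at least 5.92 CPM in CAF-vec and at most 1.62 CPM in CAF-200, and *Msln* fell (log2 fold change -1.97, limma adjusted *p* = 0.0029). What part these markers have in the results for the IGF axis was not tested. In bulk RNA, fewer cells of a type and less RNA per cell cannot be told apart.

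Of the 8 tested members, 1 was lower and 1 was higher at the threshold, or 25% against 10.0% of all genes tested. The higher one, *Igfbp2*, passed the filter on low values only through the CAF-200 samples, so this share does not support a difference of the members from other genes. At an adjusted *p* under 0.05 the count was 3 of 8, with *Igf2* as the third, against 30.5% of all genes tested. *Igf2* passed 0.05 only narrowly and did not pass it without any 1 CAF-200 sample. Every CAF-200 sample was below CAF-vec for 1 of the 8 (37.3% of all genes tested), above both for 3 (24.3%), and on either side for 4 (50%, against 61.6%). The median log2 fold change of the 8 was 0.21, and that of all tested genes was -0.094. With the study's further requirement of a log2 fold change beyond 1, which 2.35% of genes met downward and 2.37% upward, *Igfbp2* remained and *Igf2r* did not.

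**Figure D2:**
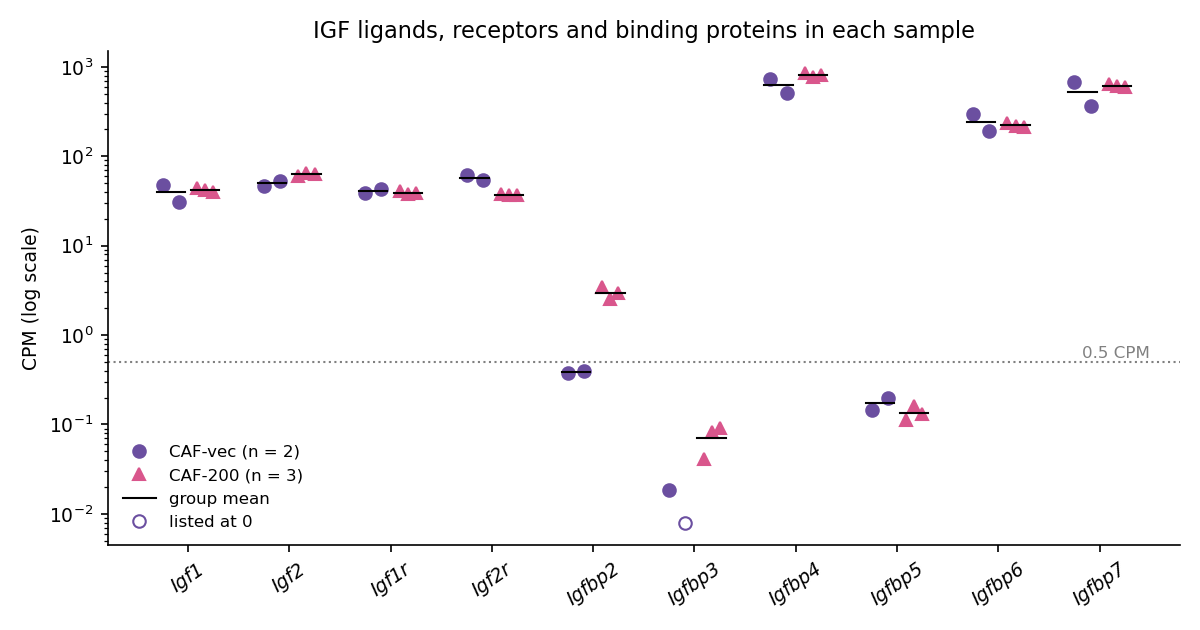
CPM of the 10 members in each of the 5 samples on a log axis, with circles for CAF-vec (n = 2), triangles for CAF-200 (n = 3), black bars for group means, an open circle for a value listed at 0 and a dotted line at the 0.5 CPM used for filtering. *Igfbp2* lies between 0.374 and 0.399 CPM in CAF-vec and between 2.54 and 3.48 CPM in CAF-200, and *Igf2r* is lower in all CAF-200 samples.

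Of the ligands, neither passed the threshold. *Igf2* (ENSMUSG00000048583, chromosome 7 of GRCm38, 142650766 to 142666816, minus strand), the ligand of both receptors, was 47.1 and 53.5 CPM in CAF-vec and 60.7, 65.1 and 64.0 CPM in CAF-200. All CAF-200 samples were thus above both CAF-vec samples, with means of 50.3 ± 4.48 CPM (SD, n = 2) and 63.3 ± 2.29 CPM (SD, n = 3). The log2 fold change of *Igf2* was 0.33 (standard error 0.0948, 95% interval 0.096 to 0.57, limma adjusted *p* = 0.0469). Without CAF-vec replicate 2 it was 0.42 and without CAF-vec replicate 1 it was 0.24, each against a lone CAF-vec sample. The adjusted *p* of *Igf2* from limma was 0.0518 with no filter, 0.0603 with no variance trend, 0.202 with the replicate number as a block, and 0.131, 0.177 and 0.172 without CAF-200 replicates 1, 2 and 3. *Igf2* shares 3596 exonic bases with *Gm49394* on the same strand, which was between 0 and 0.131 CPM, so reads of the shared exons could be divided between them. It also shares 98 exonic bases with the antisense gene *Igf2os*.

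*Igf1* (ENSMUSG00000020053, chromosome 10, 87858265 to 87937042, plus strand), which encodes the other ligand, was 48.2 and 31.1 CPM in CAF-vec and 44.0, 41.6 and 40.0 CPM in CAF-200. The CAF-200 values lay between those of the CAF-vec samples. Its log2 fold change of 0.11 (standard error 0.189, 95% interval -0.35 to 0.58, limma adjusted *p* = 0.67) turned to -0.20 without CAF-vec replicate 2 and became 0.42 without CAF-vec replicate 1. The direction for *Igf1* therefore rested on which CAF-vec sample was kept.

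Between the receptors, *Igf2r* fell and *Igf1r* did not pass the threshold. *Igf2r* (ENSMUSG00000023830, chromosome 17, 12682406 to 12769664, minus strand) was 61.3 and 54.2 CPM in CAF-vec and 37.7, 36.8 and 36.9 CPM in CAF-200. Every CAF-200 sample was below both CAF-vec samples. The CAF-200 mean of 37.1 ± 0.505 CPM (SD, n = 3) was 0.643 times the CAF-vec mean of 57.7 ± 5.04 CPM (SD, n = 2). The log2 fold change of *Igf2r* was -0.63 (standard error 0.0909, 95% interval -0.85 to -0.40, limma adjusted *p* = 0.00776). This call was close to the threshold and was lost under some other settings. The adjusted *p* from limma was 0.0107 with no filter, 0.0101 with no variance trend and 0.0529 with the replicate number as a block. The direction and size of the *Igf2r* change held when any 1 sample was left out (log2 fold change -0.72 to -0.54). Its adjusted *p* from limma was then 0.0475 without CAF-200 replicate 1, 0.0518 without CAF-200 replicate 2 and 0.054 without CAF-200 replicate 3. *Igf2r* is imprinted in mouse, and the antisense gene *Airn*, not analysed here, overlaps it without sharing exonic bases.

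*Igf1r* (ENSMUSG00000005533, chromosome 7, 67952827 to 68233668, plus strand), the signaling receptor, was 39.2 and 42.9 CPM in CAF-vec and 40.6, 37.7 and 39.1 CPM in CAF-200. The groups overlapped, with a log2 fold change of -0.07 (standard error 0.089, 95% interval -0.29 to 0.15, limma adjusted *p* = 0.574). The sign of this value turned to 0.024 after quantile normalization and to 0.027 after centring on each sample's median. The interval for *Igf1r* lies above that for *Igf2r*, although the difference between these genes was not tested. Per kilobase of exon, the ratio of *Igf2r* to *Igf1r* was 2.82 and 2.28 in CAF-vec and 1.68, 1.76 and 1.70 in CAF-200.

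**Figure D3:**
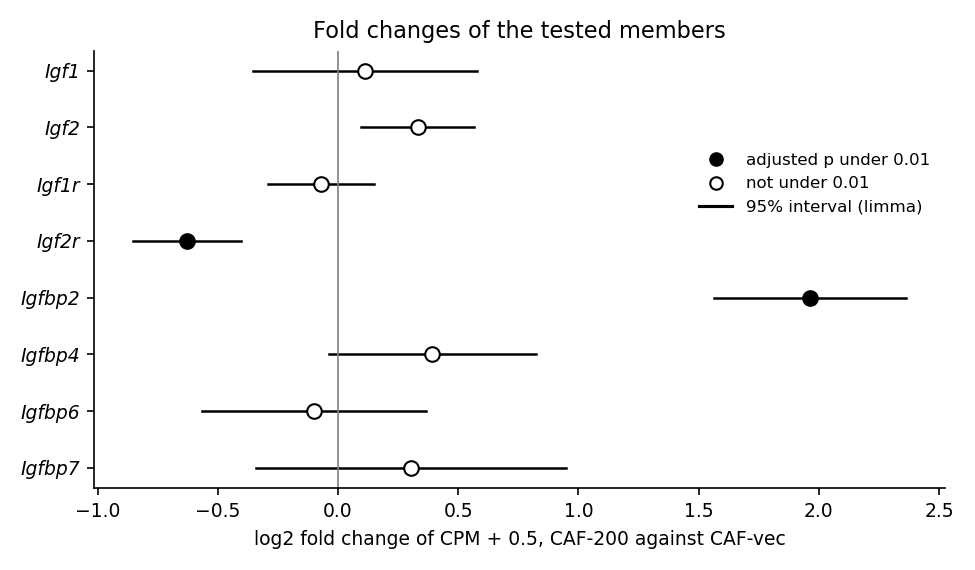
Log2 fold change of CPM + 0.5 in CAF-200 (n = 3) against CAF-vec (n = 2) for the 8 tested members, with 95% intervals from limma and filled points for an adjusted *p* under 0.01. *Igf2r* at -0.63 and *Igfbp2* at 1.96 are the filled points, and the intervals of *Igf1*, *Igf1r*, *Igfbp4*, *Igfbp6* and *Igfbp7* include 0.

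Among the binding proteins, *Igfbp2* rose from a low level, *Igfbp4*, *Igfbp6* and *Igfbp7* were abundant without passing the threshold, and *Igfbp3* and *Igfbp5* were near 0. *Igfbp2* (ENSMUSG00000039323, chromosome 1, 72824503 to 72852474, plus strand), a carrier that binds IGF-2 with high affinity, was 0.374 and 0.399 CPM in CAF-vec and 3.48, 2.54 and 2.92 CPM in CAF-200. The groups were far apart relative to the spread within each. Its CAF-200 mean of 2.98 ± 0.472 CPM (SD, n = 3) was 7.72 times the CAF-vec mean of 0.386 ± 0.0176 CPM (SD, n = 2). The log2 fold change of *Igfbp2* was 1.96 (standard error 0.161, 95% interval 1.57 to 2.36, limma adjusted *p* = 0.00268). Both CAF-vec values are under the 0.5 CPM of the filter, so *Igfbp2* was tested only because it was higher in CAF-200, and with no filter its adjusted *p* from limma was 0.00498. Since 0.5 CPM exceeds the CAF-vec level, this scale understates the change, and with a pseudocount of 0.1 CPM the log2 fold change was 2.65. With 1 CAF-200 sample left out it stayed between 1.86 and 2.06, with an adjusted *p* of 0.0225, 0.0214 and 0.0269 from limma without CAF-200 replicates 1, 2 and 3.

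*Igfbp4* (ENSMUSG00000017493, chromosome 11, 99041244 to 99054392, plus strand), which mainly restrains IGF action until it is cleaved by pappalysin, was 739 and 517 CPM in CAF-vec and 852, 766 and 819 CPM in CAF-200. All CAF-200 values were above both CAF-vec values. Its log2 fold change was 0.39 (standard error 0.175, 95% interval -0.039 to 0.82, limma adjusted *p* = 0.137). It was 0.65 without CAF-vec replicate 1 and 0.13 without CAF-vec replicate 2.

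*Igfbp6* (ENSMUSG00000023046, chromosome 15, 102144362 to 102149511, plus strand), which prefers IGF-2 to IGF-1, was 294 and 193 CPM in CAF-vec and 236, 219 and 212 CPM in CAF-200. The CAF-200 values lay between those of the CAF-vec samples, with a log2 fold change of -0.10 (standard error 0.188, 95% interval -0.56 to 0.36, limma adjusted *p* = 0.702). It was 0.20 without CAF-vec replicate 1 and -0.40 without CAF-vec replicate 2.

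*Igfbp7* (ENSMUSG00000036256, chromosome 5, 77349240 to 77408041, minus strand), a related protein of the extracellular matrix that binds IGFs only weakly, was 682 and 366 CPM in CAF-vec and 644, 607 and 601 CPM in CAF-200. Again the CAF-200 values lay between those of the CAF-vec samples (log2 fold change 0.30, standard error 0.26, 95% interval -0.34 to 0.95, limma adjusted *p* = 0.4). It was -0.14 without CAF-vec replicate 2 and 0.75 without CAF-vec replicate 1. *Igfbp7* shares 85 exonic bases with *Polr2b* on the opposite strand, which was 64.8 to 133 CPM. The kit kept strand, but whether the counting used it is not given in the sources used here.

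*Igf1*, *Igfbp4*, *Igfbp6* and *Igfbp7* had in common that CAF-vec 1 was 1.43 to 1.86 times as high as CAF-vec 2. On the log2(CPM + 0.5) scale, CAF-vec 2 was lower than CAF-vec 1 by more for *Igfbp7* (-0.90) than for all but 3.89% of the tested genes. That share was 10.3% for *Igf1* (-0.63), 11.0% for *Igfbp6* (-0.61) and 14.4% for *Igfbp4* (-0.52). The median difference of all tested genes was -0.054. *Igf2*, *Igf1r*, *Igf2r* and *Igfbp2* differed between the CAF-vec samples by -0.18 to 0.18 on the same scale. Within CAF-200 the spread from the lowest to the highest sample was between 0.034 for *Igf2r* and 0.39 for *Igfbp2* among the tested members.

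The remaining members were too low to be tested. *Igfbp3*, the main carrier of IGFs in the circulation, was 0.0186 CPM in CAF-vec 1, listed at 0 in CAF-vec 2, and 0.0406, 0.0818 and 0.0916 CPM in CAF-200. *Igfbp5*, which is next to *Igfbp2* on chromosome 1, was 0.145 and 0.199 CPM in CAF-vec and 0.111, 0.162 and 0.132 CPM in CAF-200. The values of *Igfbp3* were higher in all CAF-200 samples, but all of them were below 0.1 CPM, and those of *Igfbp5* overlapped. Values this low were not alike in kind between the groups, since each CAF-200 column lists 6127 genes at 0 and holds 816 to 1107 values above 0 but under 0.004 CPM, whereas the CAF-vec columns list 7898 and 7413 genes at 0 and hold none so low.

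To compare levels between genes, CPM were divided by the annotated exon length of each gene in kilobases. On that scale *Igfbp7* was the highest member at 434 ± 185 CPM per kb (SD, n = 2) in CAF-vec and 511 ± 19.2 (SD, n = 3) in CAF-200, above 99.0% of the tested genes or equal to them. It was followed by *Igfbp6* (219 ± 64.3 and 200.1 ± 11.2 CPM per kb) and *Igfbp4* (142 ± 35.6 and 184 ± 9.83 CPM per kb), which did not overlap in CAF-vec and overlapped in CAF-200. The ligand *Igf2* came next at 8.79 ± 0.783 and 11.1 ± 0.400 CPM per kb. *Igf2r* was at 6.20 ± 0.542 CPM per kb in CAF-vec and 3.99 ± 0.0542 in CAF-200, and *Igf1* was at 4.86 and 3.14 in the CAF-vec samples and 4.23 ± 0.203 in CAF-200. *Igf2r* was thus above *Igf1* in both CAF-vec samples and below it in all CAF-200 samples. *Igf1r* followed with 2.45 ± 0.154 and 2.33 ± 0.0867 CPM per kb, and *Igfbp2* with 0.209 ± 0.0095 and 1.61 ± 0.255. The ratio of *Igf2* to *Igf1* per kilobase was 1.69 and 2.98 in CAF-vec and 2.39, 2.71 and 2.77 in CAF-200, so it overlapped.

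Per kilobase, *Igfbp4*, *Igfbp6* and *Igfbp7* made up 99.8% to 99.98% of the summed level of the 6 binding-protein genes in every sample. *Igfbp7* held 56.6% and 51.0% of the sum in CAF-vec and 56.7%, 57.5% and 56.8% in CAF-200. *Igfbp6* held 26.5% and 29.2% in CAF-vec and 22.6%, 22.5% and 21.8% in CAF-200, and *Igfbp4* held 16.8% and 19.7% in CAF-vec and 20.5%, 19.8% and 21.2% in CAF-200. The share of *Igfbp6* was therefore lower, and those of *Igfbp4* and *Igfbp7* higher, in each CAF-200 sample than in both CAF-vec samples. The difference for *Igfbp7*, 3.15 percentage points between the group means, was 0.35 without CAF-vec replicate 2, 5.95 without CAF-vec replicate 1 and 0.419 with CPM not divided by length. That for *Igfbp4*, 2.27 percentage points, was 0.811 without CAF-vec replicate 1, 3.72 without CAF-vec replicate 2 and 3.52 with CPM not divided by length. The share of *Igfbp6* differed by -6.90 to -4.09 percentage points under the same alternatives. *Igfbp2* went from 0.0283 ± 0.0113% (SD, n = 2) to 0.179 ± 0.0215% (SD, n = 3), and thus remained a small part of the sum where it rose. Each of these 4 shares had a two-sided exact permutation *p* of 0.1 (0.175 adjusted over the 7 values tested), which is the smallest that 2 against 3 samples allow. The summed level was 996 and 594 CPM per kb in CAF-vec and 940, 874 and 875 CPM per kb in CAF-200, so the groups overlapped (exact permutation *p* = 0.7). It was 47.6 to 76.1 times the summed level of the ligands over the 5 samples.

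**Figure D4:**
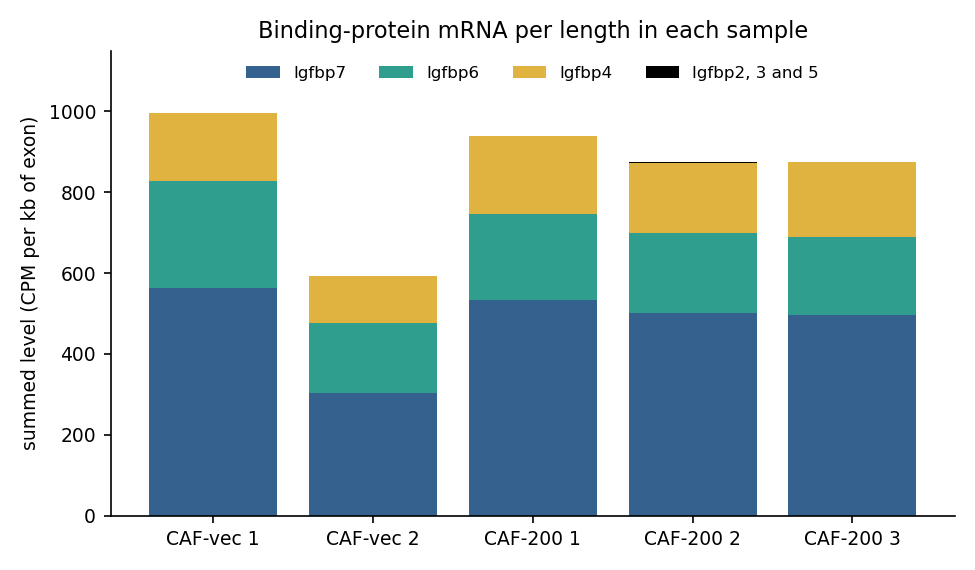
Summed level of the binding-protein genes in each sample, in CPM per kilobase of exon, stacked by gene, where *Igfbp2*, *Igfbp3* and *Igfbp5* together are too thin to see. The 2 CAF-vec samples, at 996 and 594, lie on either side of the 3 CAF-200 samples, which hold a smaller share of *Igfbp6*.

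The rest of the pathway was followed with a list of 71 genes, of which 69 had a row and 55 could be tested. Of these, 5 were lower and 5 were higher, or 18.2% against 10.0% of all genes tested, and their median log2 fold change was -0.18 against -0.094. The groups did not overlap for 65.5% of them, against 61.6% of all genes tested. The list was made with earlier results of these data known. These shares, and those by role below, therefore do not support a difference from other genes. With the *p* threshold and a log2 fold change beyond 1, 8 of the 10 remained. When the replicate number was a block, 1 was lower and 4 were higher at the adjusted *p* of 0.01 from limma. Without any 1 CAF-200 sample none passed it, with 14 to 16 lower and 8 higher at an unadjusted *p* under 0.05. For these fits the share of all genes tested was not taken, so the counts do not set the list apart from other genes. *H19* and *Airn* of the list were not analysed here.

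The signaling part of the list held 1 call. None of the 4 receptors and co-receptors tested was called, with log2 fold changes from -0.25 for *Lrp1* to 0.85 for *Itgb3* (limma adjusted *p* = 0.308 and 0.0327), and *Insr*, the insulin receptor, had a value of -0.11 (limma adjusted *p* = 0.427). None of the 17 tested genes of PI3K, AKT and FOXO was called either, with log2 fold changes from -0.85 to 0.27, where 10.0% of all genes tested were called. At an adjusted *p* under 0.05 it was 4 of the 17, against 30.5% of all genes tested. *Foxo4*, a forkhead factor held back by AKT, and *Tsc1*, a brake on growth signaling, narrowly missed the threshold (log2 fold change -0.85 and -0.62, limma adjusted *p* = 0.0105 and 0.0106), and were chosen after their values were seen. Of 13 adaptors and negative regulators, 1 was called (7.69%, against 10.0%). This was *Socs2*, a suppressor of cytokine signaling known to limit growth hormone action, which was at 23.9 ± 8.62 CPM (SD, n = 2) in CAF-vec and 92.0, 83.7 and 97.9 CPM in CAF-200. *Socs2* rose in 3 of 3 CAF-200 samples (log2 fold change 1.96, standard error 0.221, limma adjusted *p* = 0.00437). The other 12 had log2 fold changes from -0.55 to 0.55.

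Of the proteases that act on binding proteins and their inhibitors, 12 were tested. Of these, 3 rose and 2 fell, or 41.7% against 10.0% of all genes tested, in a list made with earlier results known. *Stc1*, which encodes stanniocalcin 1, an inhibitor of the pappalysin that cleaves IGFBP-4, was 0.758 and 1.17 CPM in CAF-vec and 8.66, 9.10 and 8.11 CPM in CAF-200 (log2 fold change 2.65, standard error 0.157, limma adjusted *p* = 0.00134). The pappalysin gene *Pappa* itself was at most 0.0494 CPM in any sample, and *Pappa2* was 0.315 and 0.268 CPM in CAF-vec and at most 0.0106 CPM in CAF-200, so neither was tested, and the same difference between the columns near 0 applies to them. *Stc2*, which encodes the other stanniocalcin and pappalysin inhibitor, was 5.97 and 6.90 CPM in CAF-vec and 5.20, 5.12 and 6.003 CPM in CAF-200, so it overlapped (log2 fold change -0.22, limma adjusted *p* = 0.22). These were looked up after the value of *Stc1* was seen. *Adam12*, a metalloprotease known to cleave IGFBP-3 and IGFBP-5, was 12.7 and 15.3 CPM in CAF-vec and 34.8, 38.3 and 39.1 CPM in CAF-200 (log2 fold change 1.39, limma adjusted *p* = 0.00278). The genes of both substrates were near 0 in these cells.

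*Adamts1* and *Mmp14*, which encode proteases that act on the extracellular matrix, fell. *Adamts1* was 108 and 122 CPM in CAF-vec and 38.5, 48.9 and 33.2 CPM in CAF-200 (log2 fold change -1.52, limma adjusted *p* = 0.00466). *Mmp14* was 417 and 453 CPM in CAF-vec and 227, 222 and 224 CPM in CAF-200 (log2 fold change -0.95, limma adjusted *p* = 0.00318).

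Of the other carriers and related genes, only *Esm1* and *Kazald1* were high enough to be tested. *Igfbp1* and *Igfals*, which encode a carrier made in liver and the acid-labile subunit of the circulating complex, were listed at 0 in every sample. *Esm1*, which encodes the secreted proteoglycan endocan, was 2.32 and 1.44 CPM in CAF-vec and 18.2, 14.1 and 19.3 CPM in CAF-200 (log2 fold change 2.91, standard error 0.214, limma adjusted *p* = 0.00229). *Kazald1*, which encodes a secreted protein with an IGFBP-like domain, was 3.85 and 4.08 CPM in CAF-vec and 1.91, 2.20 and 1.77 CPM in CAF-200 (log2 fold change -0.86, limma adjusted *p* = 0.00871). Among genes for ligand maturation and RNA regulation, 2 of 7 were called and both fell (28.6%, against 10.0% of all genes tested). *Igf2bp3*, an RNA-binding protein that acts on *Igf2* mRNA, was 17.8 and 16.6 CPM in CAF-vec and 8.53, 7.32 and 6.80 CPM in CAF-200 (log2 fold change -1.14, limma adjusted *p* = 0.0041). Its relatives *Igf2bp1* and *Igf2bp2* had log2 fold changes of -0.24 and -0.26 (limma adjusted *p* = 0.276 and 0.195). *Plagl1*, an imprinted zinc finger factor, was 35.8 and 27.4 CPM in CAF-vec and 12.8, 13.2 and 10.6 CPM in CAF-200 (log2 fold change -1.33, limma adjusted *p* = 0.0049).

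**Figure D5:**
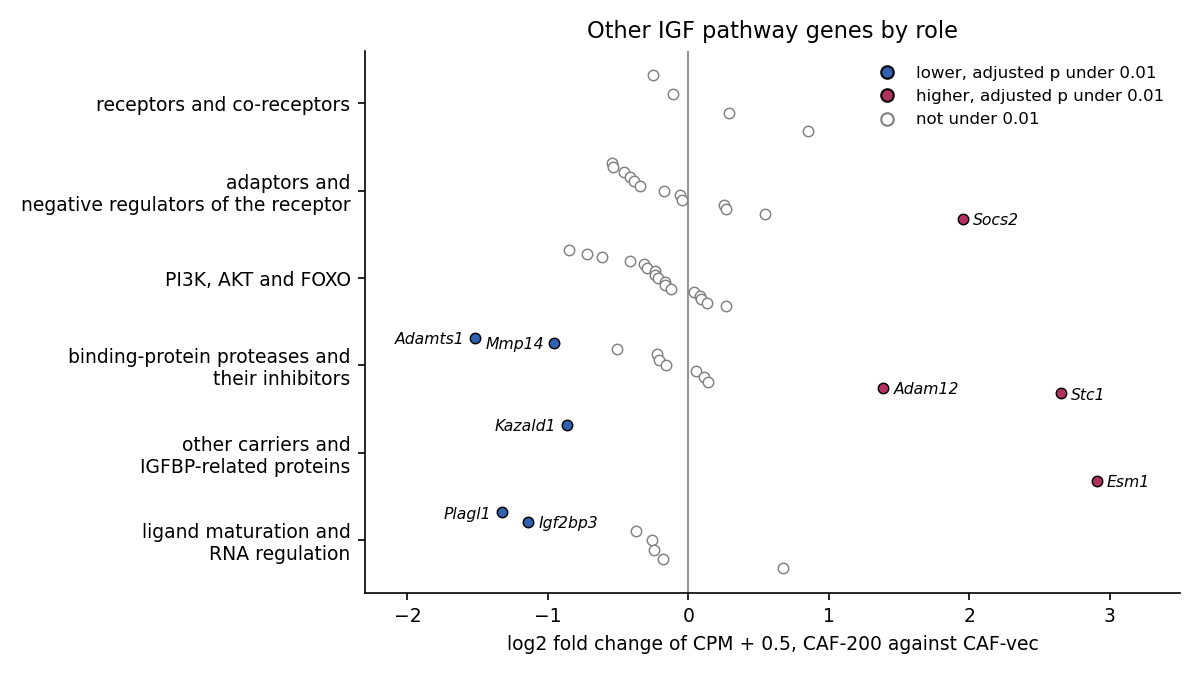
Log2 fold change of CPM + 0.5 in CAF-200 (n = 3) against CAF-vec (n = 2) for tested genes of the rest of the pathway, 1 point per gene, in rows by role, with filled and named points for an adjusted *p* under 0.01. The 17 genes of PI3K, AKT and FOXO lie between -0.85 and 0.27 with no filled point, and *Esm1* at 2.91 and *Stc1* at 2.65 lie farthest to the right.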

How the data were processed

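RNA was sequenced from 2 CAF-vec and 3 CAF-200 samples, in paired ends from a stranded mRNA kit. The authors deposited 1 table of CPM values, whose name gives TMM as the normalization, and nothing else in the sources used here states it. FastQC, cutadapt, Trimmomatic, STAR, RSEM and edgeR are named in the submitters' processing notes, with GRCm38 (mm10). The methods describe triplicates and a pLVX-Hyg vector, while the labels list 2 and 3 samples and a pLVX-Neo vector with G418 selection. Columns summed to 999956 to 1000111 CPM. Low values were set against whole multiples of a best-fitting step, which was 0.0095 to 0.0103 CPM. In CAF-vec 1 only 75.6% of them were within 0.1 of a multiple, against 95.6% to 99.6% in the other columns. CAF-200 columns alone hold values above 0 but below 0.004 CPM (816 to 1107). They also list the same number of genes at 0 (6127) for a reason not known. Reads were therefore not recovered, no count test was run and depth was not worked out.

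Genes were named by Ensembl identifier (21795 of 21835) and placed with GENCODE M21 (GRCm38). A gene entered limma 3.58.1 (R 4.3.3, variance trend, log2(CPM + 0.5)) if 2 or more samples reached 0.5 CPM, and this fit was tested on simulated data. Length was the union of annotated exons. Exact permutation tests were two-sided. Named genes are all members, *Zeb1* and *Zeb2*, and list genes at an adjusted *p* under 0.01 (at most 6 a role); others were chosen after their values were seen. Of the list genes that passed, 1 is counted but not reported here or plotted. The members and lists were chosen with earlier results of these data known. Alternatives were other pseudocounts, filters, scalings and thresholds, no trend, each sample left out, the replicate number as a block, other lengths and other seed searches. Python 3.11.15, pandas 2.3.3, numpy 2.4.6 and matplotlib 3.10.9 were used.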

Additional observations from a re-analysis of the deposited data

How the results depend on the processing

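Of 216 alternative values, 163 kept their direction and their side of the threshold, or moved by less than the spread used for them. What caused the following changes was not tested. The 1 member lower in CAF-200 became 0 without a filter on low values, 0 without a variance trend, 0 with the replicate block and 0 with a log2 fold change beyond 1, and 0 to 2 with each sample left out. The 1 member higher became 0 at 1 CPM in every sample, where *Igfbp2* was no longer tested, 2 at an adjusted *p* under 0.05, and 0 to 4 with each sample left out. When 1 CAF-200 sample was left out, 1 member was lower and 1 to 2 were higher at an unadjusted *p* under 0.05. The share of all genes tested was not taken for the fits with a sample left out. These counts therefore do not set the members apart from other genes. For the rest of the pathway, the 5 lower genes became 1 with the replicate block, where 13 had an unadjusted *p* under 0.05, 14 at an adjusted *p* under 0.05, 3 with a log2 fold change beyond 1, and 0 to 21 with each sample left out. The 5 higher genes became 0 to 9 with each sample left out, and 8 at an adjusted *p* under 0.05.

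*Igf2r* had an adjusted *p* above 0.01 at a log2 fold change of -0.6272 without a filter (0.0107, limma) and without a trend (0.0101), and of -0.6222 with the replicate block (0.0529). With each sample left out, the log2 fold changes ranged from -0.72 to -0.54 for *Igf2r*, 1.86 to 2.06 for *Igfbp2*, -0.20 to 0.42 for *Igf1*, 0.24 to 0.42 for *Igf2*, 0.13 to 0.65 for *Igfbp4*, -0.40 to 0.20 for *Igfbp6* and -0.14 to 0.75 for *Igfbp7*. Leaving out a CAF-vec sample leaves a lone sample that is assumed to vary like CAF-200. *Igf1r* turned to 0.0237 after quantile normalization and 0.0274 after centring. The replicate numbers 1 and 2 occur in both groups. The deviations of same-numbered samples correlated at 0.25 and 0.13, against 0.12 for CAF-vec 2 and CAF-200 3. The 2 CAF-vec deviations mirror each other, so CAF-vec 1 and CAF-200 3 gave -0.12, and these values are not separate evidence. With 2 shared numbers and no label saying what a number marks, the samples share only a number. The block lost the call of *Igf2r* and kept that of *Igfbp2* (adjusted *p* = 0.00915, limma).

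In the shares of the binding proteins, CAF-200 minus CAF-vec was 0.206 in place of 0.151 percentage points for *Igfbp2* with the longest transcript as length, and 0.00382 in place of 0.00227 for *Igfbp3* and -0.00525 in place of -0.00148 for *Igfbp5* with CPM not divided by length. Members with a miR-200a match went from 3 to 1, and those with a miR-200b and miR-429 match from 2 to 0, when 8 bases had to match. edgeR and DESeq2 on recovered reads were not run, since reads were not recovered.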
